A study of Mus musculus with 16 samples.

Results

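Fatty acid uptake and acyl-CoA activation were described here through 8 genes, the fatty acid transport proteins *Slc27a1*, *Slc27a2*, *Slc27a3* and *Slc27a4* and the long-chain acyl-CoA synthetases *Acsl1*, *Acsl3*, *Acsl4* and *Acsl5*. They were taken by gene symbol from the 54532 genes counted by bulk RNA sequencing in 16 mouse jejunal enteroid cultures. Enteroids are epithelial organoids grown from intestinal crypts, here with 4 cultures in each of 4 groups. By the methods for the enteroids, the donor mice carried Vil1-CreERT2, a tamoxifen-activated Cre recombinase driven by the epithelial villin promoter. MYO5BΔIEC cultures were *Myo5b* flox/flox and MYO5B(G519R) cultures were *Myo5b* flox/G519R, with 1 allele encoding the G519R mutant of the motor protein myosin Vb, which is mutated in microvillus inclusion disease. Both received 1 µM of 4-OH-tamoxifen for 24 h in culture, so that recombination took place in the epithelium after it had been isolated. Control cultures were *Myo5b* flox/flox with vehicle (ethanol) according to the methods, whereas a figure legend of the study calls the controls healthy littermates. An effect of 4-OH-tamoxifen or of Cre activity therefore cannot be told apart from MYO5B loss. The last group was MYO5BΔIEC treated with 100 nM Compound-1, an agonist preferring the lysophosphatidic acid receptor LPAR5, for 2 days, and the MYO5BΔIEC group proper had its vehicle. The donors were adult mice, and all cultures were kept in differentiation medium without added Wnt ligands and EGF. Libraries held 27804968 to 40101729 counts.

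Long-chain fatty acids enter enterocytes across the brush border, and conversion to acyl-CoA traps them inside the cell. The SLC27 proteins assist uptake and have acyl-CoA synthetase activity of their own, whereas the ACSL enzymes are membrane-bound synthetases. In the small intestine the acyl-CoA made this way feeds mainly triglyceride and cholesteryl ester synthesis for chylomicrons, and part of it goes to membrane lipids and to oxidation in mitochondria and peroxisomes.

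The upstream sequences of *Slc27a3*, *Slc27a4* and *Acsl4* are shown because these genes rose (*Slc27a3*, *Slc27a4*) or fell (*Acsl4*) in MYO5BΔIEC enteroids. Each sequence holds the 250 bases before the RefSeq start of the gene in GRCm38.p6, 5′ to 3′ on the strand of the gene, and capitals mark the GC box, GGGCGG or its reverse complement CCGCCC. The intervals are chr3:90389939-90390188 on the minus strand for *Slc27a3*, chr2:29802384-29802633 on the plus strand for *Slc27a4* and chrX:142390536-142390785 on the minus strand for *Acsl4*.
Slc27a3: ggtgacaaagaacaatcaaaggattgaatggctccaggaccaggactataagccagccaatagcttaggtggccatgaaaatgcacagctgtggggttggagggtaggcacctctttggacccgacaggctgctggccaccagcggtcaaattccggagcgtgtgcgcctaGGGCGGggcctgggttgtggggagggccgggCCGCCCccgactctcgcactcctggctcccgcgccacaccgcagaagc
Slc27a4: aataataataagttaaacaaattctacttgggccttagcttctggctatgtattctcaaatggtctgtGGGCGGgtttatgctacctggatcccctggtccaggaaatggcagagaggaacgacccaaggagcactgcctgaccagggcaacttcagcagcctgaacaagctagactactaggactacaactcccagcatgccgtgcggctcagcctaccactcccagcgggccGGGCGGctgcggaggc
Acsl4: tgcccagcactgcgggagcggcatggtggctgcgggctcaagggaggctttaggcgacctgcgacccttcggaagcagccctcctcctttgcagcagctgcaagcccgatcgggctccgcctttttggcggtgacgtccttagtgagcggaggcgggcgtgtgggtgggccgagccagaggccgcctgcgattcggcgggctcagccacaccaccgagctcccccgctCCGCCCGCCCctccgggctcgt
All 8 genes had a RefSeq entry, with 3 listed starts for *Slc27a1* and 2 for *Acsl1*. *Slc27a3* had GC boxes 79 and 48 bases before its start, *Slc27a4* had them at 182 and 16 bases, and *Acsl4* had an overlapping pair at 22 and 18 bases. A GC box on either strand was found in 8 of the 11 windows of these genes, all but those of *Acsl5*, 1 start of *Slc27a1* and 1 start of *Acsl1*, and in 32.7% of 32851 RefSeq promoters of the same length. The nuclear receptor half-site AGGTCA, present in 14% of promoters, was found only before *Slc27a2*, 220 bases from the start. A direct repeat of AGGTCA spaced by any 1 base, which contains the half-site and occurred in 0.0335% of promoters, and the TATA box TATAAA, which occurred in 12.4%, matched none of these windows. A match is only an occurrence of the letters in the window.

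Before the comparisons, *Myo5b* itself was examined. In CPM (counts per 1000000 counts, scaled with TMM over all libraries), control cultures 1 to 4 had 160, 230, 191 and 176, and MYO5BΔIEC cultures had 135, 109, 170 and 101. MYO5B(G519R) cultures had 139, 153, 173 and 136 CPM, and the Compound-1-treated cultures had 149, 106, 87.2 and 101 CPM. The values of MYO5BΔIEC and of control overlapped in 1 culture, and the difference of -0.55 log2 (SE 0.19) just missed the threshold (edgeR adjusted p = 0.0503). In MYO5B(G519R) the difference was -0.33 log2 (SE 0.14 and adjusted p = 0.109 by edgeR). Without control culture 1, which is described next, both passed, at -0.63 and -0.37 log2 (edgeR adjusted p = 0.0155 and 0.0286). The counts cover the whole gene without separating the deleted exons, so a shortened transcript, if made, would still be counted. G519R is a point mutation, so its transcript would be counted too. Neither transcript length nor the extent of recombination was measured. The Compound-1-treated cultures were all below the controls in *Myo5b* (log2 fold change -0.77, edgeR adjusted p = 0.0146).

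Control culture 1 stood apart from the other controls. Its log2 CPM values (edgeR, prior count of 2) correlated with those of the other control cultures at 0.917 to 0.928 across genes with a mean log2 CPM above 1. The lowest correlation between cultures within any other group was 0.941. Summed enterocyte markers (9 genes, led by the disaccharidase gene *Sis*) were at 2866 CPM in this culture and at 10130, 8159 and 7908 CPM in control cultures 2 to 4. Its 6 tuft cell markers summed to 64.9 CPM, against 19.7, 21.7 and 25.4 CPM. The mitochondrially encoded genes took 6.41%, 9.07%, 10.4% and 9.55% of the counts in control cultures 1 to 4 and 3.79% to 6.63% in the 12 other cultures, and their part in the comparisons with control was not tested beyond leaving these genes out, which changed no call of the 8 genes. Where leaving out control culture 1 changed a call of *Myo5b* or of the 8 genes, both versions are given. Without it, many more genes of the whole table passed the test, 7474 in place of 4910 for MYO5BΔIEC against control and 8146 in place of 4778 for MYO5B(G519R) against control.

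Levels between genes were compared per length, in the deposited FPKM of the control cultures (mean ± SD, n = 4). *Acsl5*, the most abundant ACSL in intestine, was at 127 ± 22.3 FPKM and ranked 471 among the 12306 genes above 1 FPKM. *Acsl3*, which is found on the endoplasmic reticulum and nascent lipid droplets, followed at 34.1 ± 5.35 FPKM. *Slc27a4*, the transport protein best known from the small intestinal brush border, had 15.9 ± 2.95 FPKM, and *Slc27a2*, which also activates very long-chain fatty acids, had 13.9 ± 1.57 FPKM. The values of these 2 transporters overlapped between cultures. *Acsl4*, which prefers arachidonic acid, was at 7.20 ± 2.63 FPKM, *Acsl1*, a synthetase prominent in liver, heart and fat, at 5.68 ± 1.00 FPKM, and *Slc27a1*, best known from muscle and fat, at 4.62 ± 0.663 FPKM. Cultures of neighbours in this order overlapped as well. *Slc27a3*, whose physiological role is the least settled of the family, was the lowest at 0.888 ± 0.136 FPKM, with 60 to 77 counts per control library.

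**Figure D1:**
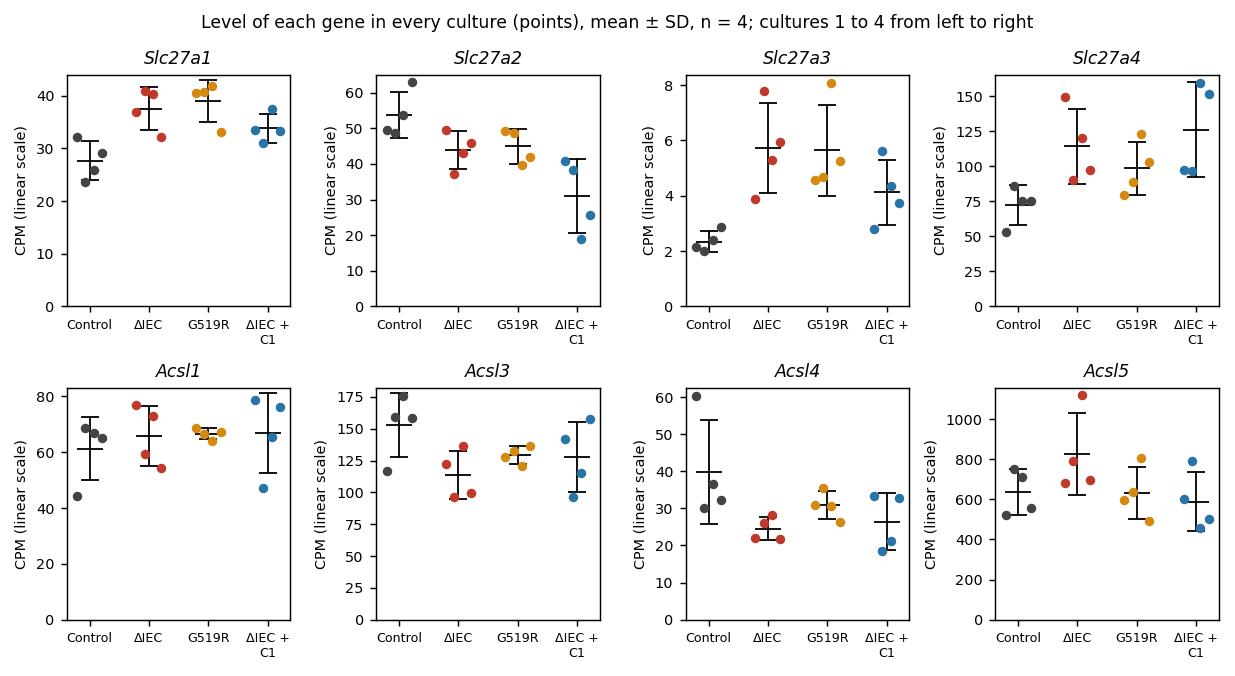
CPM (linear vertical axis from 0) of the 8 genes in the cultures of the 4 groups (C1, Compound-1), with 1 point per culture and bars for mean ± SD (n = 4). All 4 *Slc27a3* values of MYO5BΔIEC, 3.89 to 7.79 CPM, lie above the control values of 1.99 to 2.85 CPM, and control culture 1 is the highest of all for *Acsl4* at 60.4 CPM.

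The first comparison asked how the genes differed after loss of MYO5B, by deletion or by replacement with the G519R mutant. Of the 4 transport proteins, 3 were higher in MYO5BΔIEC, *Slc27a3* by 2.46-fold, *Slc27a4* by 1.58-fold and *Slc27a1* by 1.36-fold, and 1 of the 4 synthetases, *Acsl4*, fell, to 0.618 of control. In MYO5B(G519R), *Slc27a3* rose 2.41-fold and *Slc27a1* 1.41-fold, and no synthetase passed the test. Without control culture 1, *Acsl3* passed as lower in both models. Against this, 13.5% of the 17951 genes tested were higher and 13.8% lower in MYO5BΔIEC, and 13.1% of 17829 were higher and 13.7% lower in MYO5B(G519R). The median log2 fold change of the SLC27 genes was 0.56 and 0.47 in the respective models, beside -0.01 and -0.05 over all genes tested, and that of the ACSL genes was -0.15 and -0.12. Both models were compared with the same 4 control cultures, so their results are not independent. The genes were tested within fits of the whole table with edgeR's quasi-likelihood test.

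*Slc27a3* had the clearest difference. Control cultures 1 to 4 had 2.13, 1.99, 2.40 and 2.85 CPM, MYO5BΔIEC cultures had 3.89, 7.79, 5.31 and 5.94 CPM, and MYO5B(G519R) cultures had 4.57, 4.68, 8.08 and 5.25 CPM. Every culture of both models was above every control. The log2 fold change was 1.30 (SE 0.26 and adjusted p = 0.00548 by edgeR) in MYO5BΔIEC and 1.27 (SE 0.24 and adjusted p = 0.0058 by edgeR) in MYO5B(G519R). Its call held in all 8 fits that left out 1 culture in either comparison, with edgeR adjusted p up to 0.0225 and 0.0217.

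*Slc27a4* had 52.8, 86.0, 75.3 and 75.4 CPM in control. MYO5BΔIEC cultures had 149.5, 90.1, 120.3 and 97.0 CPM, and the G519R cultures 79.6, 88.9, 123.0 and 103 CPM. All MYO5BΔIEC cultures were above all controls, whereas MYO5B(G519R) culture 1 was below control culture 2. The gene rose by 0.66 log2 in MYO5BΔIEC (SE 0.20 and adjusted p = 0.0307 by edgeR), and in MYO5B(G519R) the value was 0.45 (SE 0.18) and missed the threshold (edgeR adjusted p = 0.0903), while DESeq2, which called 16.7% of all genes higher there, called it (0.48 log2, DESeq2 adjusted p = 0.0489). The MYO5BΔIEC call held in 4 of the 8 fits leaving out 1 culture, with an edgeR adjusted p of 0.0885 without MYO5BΔIEC culture 1 and 0.0254 without control culture 1.

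*Slc27a1* had 32.1, 23.6, 25.9 and 29.1 CPM in control. MYO5BΔIEC cultures had 36.9, 40.8, 40.3 and 32.1 CPM, and the G519R cultures 40.5, 40.7, 41.9 and 33.1 CPM. MYO5B(G519R) was above control throughout, and MYO5BΔIEC culture 4 lay at the level of control culture 1. The log2 fold change was 0.45 (SE 0.15 and adjusted p = 0.0434 by edgeR) in MYO5BΔIEC and 0.50 (SE 0.13 and adjusted p = 0.0221 by edgeR) in MYO5B(G519R). These calls held in 2 and 3 of 8 fits leaving out 1 culture, and both held without control culture 1 (edgeR adjusted p = 0.00969 and 0.00194). When the trend of expression on gene length was removed from each culture, *Slc27a1* and *Slc27a4* no longer passed in MYO5BΔIEC, at 0.31 and 0.58 log2 (edgeR adjusted p = 0.117 and 0.0563), and *Slc27a3* did, with 27.2% of all genes called.

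*Slc27a2* pointed the other way without passing. It had 49.4, 48.7, 53.7 and 62.9 CPM in control. MYO5BΔIEC cultures had 49.5, 37.0, 43.1 and 46.0 CPM, and the G519R cultures 49.4, 48.7, 39.7 and 42.0 CPM. The log2 fold changes were -0.28 (SE 0.14 and adjusted p = 0.16 by edgeR) and -0.26 (SE 0.12 and adjusted p = 0.156 by edgeR). The makeup of the family by FPKM differed accordingly. *Slc27a2* made up 34.8% to 42.0% of the summed SLC27 FPKM in control cultures, whereas its share was 24.0% to 29.1% in MYO5BΔIEC and 21.7% to 32.9% in the G519R model, so that neither model overlapped control. *Slc27a4* made up 44.9% ± 6.01 of the sum in control (SD, n = 4), and its share was 55.4% ± 5.00 for the deletion and 51.4% ± 5.69 for the mutant. The shares sum to the whole and were not tested.

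Among the synthetases, *Acsl4* had 60.4, 30.1, 36.7 and 32.2 CPM in control and 22.0, 26.0, 28.1 and 21.8 CPM in MYO5BΔIEC. All MYO5BΔIEC cultures were below all controls, and control culture 1 was far above the rest. The gene fell by 0.69 log2 (SE 0.22 and adjusted p = 0.0377 by edgeR), and without control culture 1 by 0.43 (SE 0.14 and adjusted p = 0.0296 by edgeR), although the call held in only 3 of 8 fits leaving out 1 culture. In MYO5B(G519R), with 30.8, 35.5, 30.7 and 26.3 CPM, the difference was -0.37 log2 (SE 0.22 and adjusted p = 0.230 by edgeR), and without control culture 1 it was -0.07 (edgeR adjusted p = 0.693). *Acsl4* lies on the X chromosome, and with the donor sex read from *Xist* and Y-linked counts as a covariate the MYO5BΔIEC value was -0.69 (edgeR adjusted p = 0.0283).

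*Acsl3* had 116.9, 159.5, 176.1 and 158.6 CPM in control. MYO5BΔIEC cultures had 122.0, 96.2, 136.8 and 99.7 CPM, and the G519R cultures 127.9, 132.5, 120.8 and 136.8 CPM. Control culture 1 lay within the range of MYO5BΔIEC and below all MYO5B(G519R) cultures, and control cultures 2 to 4 lay above both models. With all cultures the log2 differences were -0.42 (SE 0.17 and adjusted p = 0.0872 by edgeR) and -0.24 (SE 0.13 and adjusted p = 0.216 by edgeR). Without control culture 1, *Acsl3* passed as lower in both, at -0.53 log2 (edgeR adjusted p = 0.00945) and -0.32 log2 (edgeR adjusted p = 0.0113). Fits without that culture called 42.0% and 46.2% of all genes tested.

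*Acsl5* had 520, 751, 713 and 556 CPM in control. MYO5BΔIEC cultures had 683.5, 792, 1122 and 698 CPM, and the G519R cultures 599, 636, 806 and 493 CPM. MYO5BΔIEC culture 3 was the highest and the groups overlapped. The log2 differences were 0.38 (95% interval -0.07 to 0.83, edgeR adjusted p = 0.193) and 0.00 (interval -0.42 to 0.41, edgeR adjusted p = 0.994). *Acsl5* nevertheless made up 78.1% to 84.1% of the summed ACSL FPKM in MYO5BΔIEC, above the 70.2% to 76.0% of control, while *Acsl3* made up 11.3% to 15.6% against 17.99% to 22.4%. *Acsl1* had 44.4, 68.6, 67.0 and 65.1 CPM in control, with culture 1 the lowest of all 16, and 54.3 to 77.1 CPM in MYO5BΔIEC and 64.0 to 68.7 CPM in MYO5B(G519R). Its log2 differences were 0.11 (interval -0.28 to 0.50) and 0.12 (interval -0.19 to 0.43), and they turned negative, at -0.18 and -0.11, with the gene length trend removed.

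**Figure D2:**
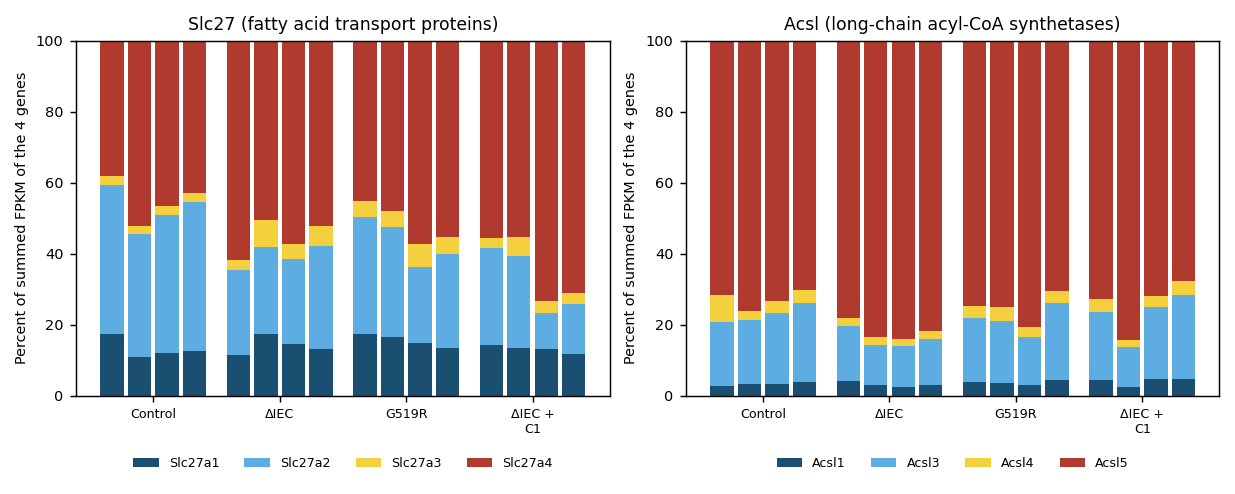
Percent of the summed FPKM of the 4 SLC27 genes (left) and the 4 ACSL genes (right) held by each gene (colours), with 1 bar per culture, cultures 1 to 4 from left to right in each group. *Acsl5* takes 70.2% to 76.0% of the ACSL sum in control and 78.1% to 84.1% in MYO5BΔIEC, and *Slc27a2* takes its smallest shares in Compound-1-treated cultures 3 and 4, down to 10.2%.

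MYO5B(G519R) and MYO5BΔIEC were also compared directly. None of the 8 genes passed, in a comparison in which edgeR called 1 of 17943 genes (0.00557%), 772 genes had an unadjusted p under 0.05, and DESeq2 called 4 (0.0223%). *Acsl4* was 0.33 log2 higher in MYO5B(G519R) (95% interval 0.03 to 0.63, edgeR adjusted p = 0.838) and *Acsl5* was 0.38 log2 lower (interval -0.80 to 0.04, edgeR adjusted p = 0.838). For *Slc27a3* the difference was -0.03 log2 with an interval from -0.60 to 0.55, which does not show that the models were alike.

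The next comparison asked whether Compound-1 altered these genes in MYO5BΔIEC enteroids. No gene passed with edgeR (0 of 18037, 0%), 1355 genes had an unadjusted p under 0.05, and DESeq2 called 91 (0.505%), none of them among the 8. *Slc27a2* had 40.9, 38.4, 18.9 and 25.7 CPM with Compound-1, against 49.5, 37.0, 43.1 and 46.0 CPM with vehicle, a log2 difference of -0.53 (95% interval -1.03 to -0.03, edgeR adjusted p = 0.65). *Acsl5* had 604, 790, 457 and 503 CPM, a difference of -0.52 (interval -0.998 to -0.03, edgeR adjusted p = 0.643), and *Slc27a3* had 2.82, 5.61, 4.34 and 3.74 CPM, a difference of -0.51 (interval -1.13 to 0.12, edgeR adjusted p = 0.757). For *Slc27a1* the interval ran from -0.48 to 0.12, for *Slc27a4* from -0.35 to 0.57, for *Acsl1* from -0.40 to 0.38, for *Acsl3* from -0.25 to 0.52 and for *Acsl4* from -0.38 to 0.54. Groups overlapped in all 8 genes.

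Against control, the Compound-1-treated cultures had higher *Slc27a4* and *Slc27a3* and lower *Slc27a2*, where 15.7% of 17937 genes tested were higher and 13.7% lower. *Slc27a4* had 97.6, 96.3, 159.0 and 151.7 CPM, all above control, a rise of 0.80 log2 (SE 0.22 and adjusted p = 0.0205 by edgeR). *Slc27a2* was below control in every culture and fell by 0.79 log2 (SE 0.23 and adjusted p = 0.0285 by edgeR). *Slc27a3* was above control in all cultures except culture 1 and rose by 0.82 log2 (SE 0.27 and adjusted p = 0.0464 by edgeR). The *Slc27a4*, *Slc27a2* and *Slc27a3* calls held in 4, 3 and 1 of 8 fits leaving out 1 culture, and without control culture 1 *Slc27a3* missed the threshold (edgeR adjusted p = 0.0527). *Slc27a1* did not pass (0.29 log2, edgeR adjusted p = 0.159) but did without control culture 1 (0.39 log2, edgeR adjusted p = 0.0355). *Acsl4* (-0.59, edgeR adjusted p = 0.12), *Acsl3* (-0.26), *Acsl1* (0.13) and *Acsl5* (-0.11) did not pass.

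Among the 4 Compound-1-treated cultures, goblet cell markers differed along with *Slc27a2* and *Slc27a4*, and some markers of other lineages also differed. Compound-1-treated cultures 3 and 4, which had the lowest *Slc27a2* and the highest *Slc27a4* of the group, had 7 goblet markers (led by *Fcgbp*, a mucus protein gene) summing to 5936 and 4204 CPM, against 2272 and 1958 CPM in cultures 1 and 2 and 1914 to 2380 CPM in MYO5BΔIEC. The 6 markers other than *Fcgbp* summed to 2345 and 1607 CPM in cultures 3 and 4 and to 888 and 1041 CPM in cultures 1 and 2. In MYO5BΔIEC these 6 markers summed to 838.6 to 906 CPM. That range included MYO5BΔIEC culture 1, with *Slc27a4* at 149.5 CPM, and culture 2, with *Slc27a2* at 37.0 CPM. In Compound-1-treated cultures 1 to 4, *Sis* was at 1926, 1282, 877 and 737 CPM, and the other 8 enterocyte markers summed to 5208, 4022, 4756 and 4398 CPM. The 5 proliferation markers summed to 1407, 1201, 688 and 1205 CPM, and the 4 stem cell markers other than *Olfm4* to 663, 504, 283 and 533 CPM. Of 4 tuft markers tested against control, 3 (75%) were lower, beside 13.7% of all genes. Without control culture 1 there were 2 (50%), beside 3403 of 17718 genes. The part of these lineages in the *Slc27a2* and *Slc27a4* results was not tested. In these bulk libraries fewer cells of a type and less RNA per cell cannot be told apart.

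**Figure D3:**
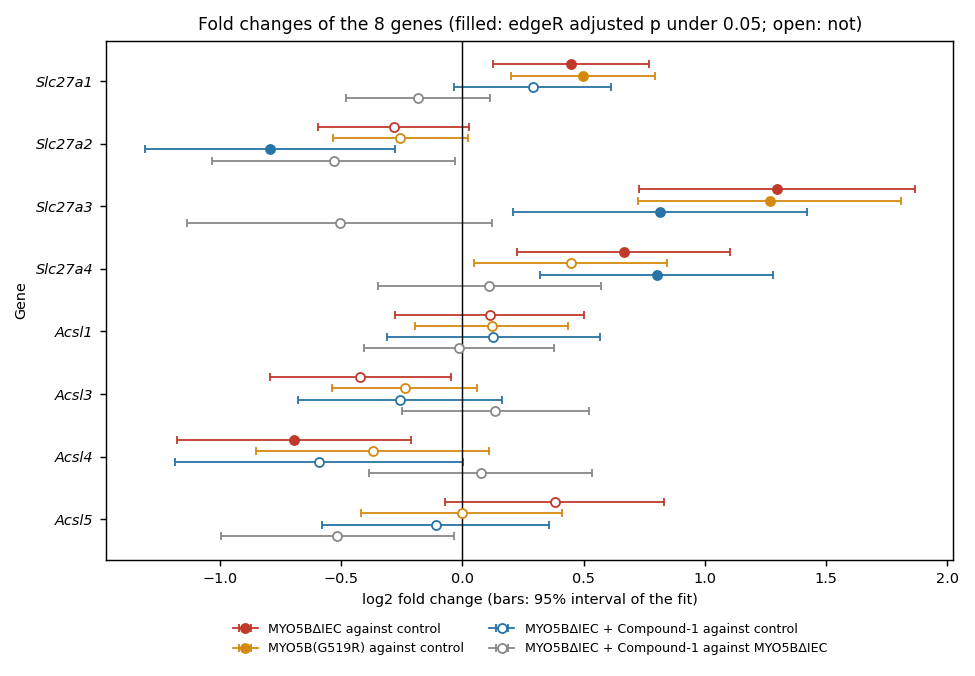
Log2 fold change of each gene (horizontal axis, bars for the 95% interval of the edgeR fit) in 4 comparisons (colours), with filled points for adjusted p under 0.05. *Slc27a3* lies farthest to the right, at 1.30 in MYO5BΔIEC and 1.27 in MYO5B(G519R), and no point of Compound-1 against vehicle (grey) is filled.

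Markers of the epithelial lineages were read in the same way. Beside their counts, 13.5% of all genes rose and 13.8% fell in MYO5BΔIEC, and 13.1% rose and 13.7% fell in MYO5B(G519R). Without control culture 1, 3767 of 17783 genes were higher and 20.8% lower in MYO5BΔIEC. In MYO5B(G519R), 4244 of 17647 were then higher and 22.1% lower. The 7 goblet markers summed to 1428 to 1744 CPM in control, and the 1914 to 2380 CPM of MYO5BΔIEC and 1922 to 2343 CPM of MYO5B(G519R) did not overlap with them. That difference was carried by *Fcgbp*, at 277 to 889 CPM in control, 1046 to 1493 CPM in MYO5BΔIEC and 993 to 1438 CPM in the mutant, since the other 6 markers summed to 855.5 to 1276 CPM, 838.6 to 906 CPM and 745 to 968 CPM in the same order. Of the 7 genes, 2 (28.6%) rose and 1 (14.3%) fell in MYO5BΔIEC, and 2 (28.6%) rose and 2 (28.6%) fell in MYO5B(G519R). The enterocyte markers kept all 9 genes detected in every group, and *Vil1* and *Anpep* rose in both models, by 1.08 and 1.58 log2 in MYO5BΔIEC and by 0.90 and 1.23 log2 in MYO5B(G519R). *Alpi* rose in MYO5BΔIEC by 1.23 log2 and was at 1.08 log2 in MYO5B(G519R) without passing (edgeR adjusted p = 0.076), and *Sis* fell in MYO5B(G519R) by 1.10 log2 (edgeR adjusted p = 0.0464) and was at -0.42 log2 in MYO5BΔIEC (edgeR adjusted p = 0.466). In the fit without control culture 1, enterocyte markers lower in MYO5B(G519R) went from 1 to 3 of 9 (11.1% to 33.3%). All genes lower went from 13.7% to 22.1%, and the median of the enterocyte markers from 0.16 to -0.10 log2. *Olfm4*, the most abundant of the 5 stem cell markers, was at 1569 to 5710 CPM in control and at 318 to 1292 CPM in MYO5BΔIEC. It was the 1 of the 5 genes that passed as lower in each model, whereas 3 of the others had positive values, with medians of 0.02 and 0.30 log2, and without control culture 1 there were 1 and 3 genes higher in MYO5BΔIEC and MYO5B(G519R). Of 5 proliferation markers, 3 (60%) fell in MYO5BΔIEC and 2 (40%) in MYO5B(G519R), beside 13.8% and 13.7% of all genes. The 6 Paneth markers, led by *Lyz1*, summed to 3243, 7738, 6648 and 7144 CPM in control and to 3092 to 4473 CPM in MYO5BΔIEC and 3113 to 4063 CPM in MYO5B(G519R). Of these 6 genes 2 (33.3%) were lower in each model. With control culture 1 left out there were 5 (83.3%) in MYO5BΔIEC and 6 (100%) in MYO5B(G519R), beside 20.8% and 22.1% of all genes. Enteroendocrine markers, led by *Chgb*, summed to 675 to 749 CPM in control and 592 to 1231 CPM in MYO5BΔIEC. Of these 7 genes 2 (28.6%) rose in MYO5BΔIEC, and 1 (14.3%) rose and 1 fell in MYO5B(G519R). All 4 tuft markers tested had negative values in both models, with medians of -0.65 and -0.48 log2, and 1 (25%) was lower in each. Without control culture 1 these medians were 0.01 and 0.05 log2, with 1 and 0 genes lower. Fibroblast, smooth muscle and adipocyte markers, led by *Col1a1*, *Myh11* and *Cfd*, summed to below 1 CPM in every culture, and endothelial markers, led by *Tek*, to at most 1.75 CPM. Immune markers reached 9.32 CPM, nearly all of it *Cd68*, and 2 or 3 of the 6 were at 0 in each group. The part of these lineages in the values of the 8 genes was not tested.

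The genes around uptake and activation were read from lists of the same pathway. Of the other uptake and binding proteins, 10 of 12 genes could be tested in MYO5BΔIEC, of which 1 (10%) fell, below the 13.8% of all genes, and 11 in MYO5B(G519R), of which 2 (18.2%) rose and 1 (9.09%) fell, beside 13.1% and 13.7% of all genes. The list median was nevertheless -0.96 log2 in MYO5BΔIEC and -0.57 log2 in MYO5B(G519R), beside -0.01 and -0.05 over all genes tested. In each model 6 genes had negative values, and 4 and 5 had positive ones. The gene that fell in both was *Cd36*, the scavenger receptor that binds long-chain fatty acids, which had a mean of 29.2 CPM in control cultures (range 11.75 to 45.4). The deletion cultures had 9.42 ± 4.09 CPM (SD, n = 4), the G519R cultures 6.80 ± 2.01 and the Compound-1 cultures 5.94 ± 3.35. Its log2 fold change was -1.63 in MYO5BΔIEC (edgeR adjusted p = 0.0142) and -2.10 in MYO5B(G519R) (edgeR adjusted p = 0.00416). The cytosolic fatty acid-binding proteins *Fabp1* and *Fabp2*, which carry absorbed fatty acids inside enterocytes, had 245 to 4447 and 119 to 1314 CPM in control, both lowest in culture 1. They passed as lower in Compound-1-treated cultures against control, at -2.38 and -2.11 log2 (edgeR adjusted p = 0.0225 and 0.0158), in 2 and 7 of the 8 fits leaving out 1 culture. The values were -1.56 and -1.33 log2 in MYO5BΔIEC (edgeR adjusted p = 0.0996 and 0.0908) and -1.62 and -1.54 log2 in MYO5B(G519R) (edgeR adjusted p = 0.087 and 0.0569), each passing in 1 of 8 such fits, the one without control culture 1. *Slc27a6*, another family member at 0.637 CPM in control, rose in MYO5B(G519R) to 1.69 CPM (2.63-fold, edgeR adjusted p = 0.0173), and *Mfsd2a*, a lysophosphatidylcholine transporter, rose with Compound-1 against control to 60.5 from 30.1 CPM. *Cav1*, the caveolin gene, passed as higher in MYO5B(G519R) and with Compound-1 against control, but its highest count was 47 and its control values were at the level of a few counts, so no fold is given. Without control culture 1, 5 genes of this list were lower in each model rather than 1, when 20.8% and 22.1% of all genes tested were called lower.

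Among other acyl-CoA synthetases, 10 of 14 genes were tested. *Aacs*, which activates acetoacetate, rose in MYO5B(G519R) to 156 ± 17.5 CPM from 101 ± 20.3 CPM (log2 fold change 0.62, edgeR adjusted p = 0.0185). *Acss3*, a mitochondrial short-chain synthetase with 4 to 44 counts per library that was singled out after its values were seen, fell by 1.71 and 1.10 log2 in the models. *Acsbg1* rose in MYO5B(G519R) and with Compound-1 against control, at no more than 147 counts in any library. Among the 17 genes of acyl-CoA binding and hydrolysis, 1 (5.88%) fell in MYO5BΔIEC, below the 13.8% of all genes, and 1 rose and 4 (23.5%) fell in MYO5B(G519R), where 13.7% of all genes fell. *Acot13*, a thioesterase, fell by 0.84 log2 in MYO5BΔIEC (edgeR adjusted p = 0.036), a call that was lost with the gene length trend removed, when the list had 1 gene higher and 0 lower and its median turned from -0.08 to 0.06 log2. In MYO5B(G519R) the thioesterases *Them4* and *Acot4* fell by 0.64 and 0.75 log2, and *Acbd6*, an acyl-CoA-binding protein, rose by 0.60 log2. The other 2 lower genes, *Acbd5* (-0.42) and the low-count *Acot3* (-1.94), were named after their values were seen. Without control culture 1, 3 genes of this list were lower in MYO5BΔIEC and 8 in MYO5B(G519R), beside the same 20.8% and 22.1% of all genes.

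Of 16 esterification genes tested, 5 (31.2%) rose and 1 fell in MYO5BΔIEC, where 13.5% of all genes rose, and 4 (25%) rose and 1 fell in MYO5B(G519R), where 13.1% did. Their median log2 fold change was 0.19 and 0.07, beside -0.01 and -0.05 over all genes. *Dgat2*, which makes triglyceride from diacylglycerol and acyl-CoA, ranged from 113.8 to 202 CPM in the deletion cultures and from 97.8 to 151 CPM in the mutant ones, without overlap with the 49.0 to 64.1 CPM of control. Its log2 fold change was 1.39 (SE 0.20 and adjusted p = 0.00171 by edgeR) and 1.13 (SE 0.15 and adjusted p = 0.00204 by edgeR). *Agpat1*, which adds the next acyl chain to lysophosphatidic acid, rose by 0.74 log2 in both models, and the phosphatidate phosphatases *Lpin1* and *Lpin2* rose by 1.00 and 0.80 log2 in MYO5BΔIEC and by 0.76 and 0.54 log2 in MYO5B(G519R). *Lpin3* rose in MYO5BΔIEC, and *Agpat5* fell by 0.52 and 0.43 log2. With the gene length trend removed, 2 genes of this list (12.5%) were higher in MYO5B(G519R), near the 12.6% of all genes called higher (27.5% in either direction). When control culture 1 was left out, 5 genes (31.2%) were higher in each model, beside 3767 of 17783 and 4244 of 17647 genes. In these fits 2 (12.5%) were lower in MYO5BΔIEC and 3 (18.8%) in MYO5B(G519R), below the 20.8% and 22.1% of all genes.

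Of 17 genes tested for entry into oxidation, 5 (29.4%) rose and 1 fell in MYO5BΔIEC, against 13.5% higher among all genes, and 2 (11.8%) rose and 1 fell in MYO5B(G519R), no more than the 13.1% and 13.7% of all genes. *Cpt1a*, which passes acyl groups to carnitine for mitochondrial import, ranged from 101 to 120 CPM in the deletion cultures and from 101 to 116 CPM in the mutant ones, above the 61.9 to 69.7 CPM of control. It rose by 0.76 log2 (SE 0.12 and adjusted p = 0.00239 by edgeR) and 0.70 log2 (SE 0.10 and adjusted p = 0.00222 by edgeR). *Cpt1c*, a relative best known from brain, rose from 0.377 CPM to 5.54 and 2.98 CPM. The carnitine acetyltransferase gene *Crat* rose by 0.74 log2 in MYO5BΔIEC. *Hadhb*, a subunit of the mitochondrial trifunctional protein, fell by 0.53 and 0.72 log2. With the gene length trend removed, 3 genes of this list were higher in MYO5BΔIEC (17.6%, against 12.0% of all genes), and without control culture 1 there were 4 lower genes in MYO5B(G519R), in a fit that called 22.1% of all genes lower.

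On lipid droplets, *Pnpla2*, the lipase that starts triglyceride breakdown, rose by 0.79 log2 in MYO5BΔIEC and 0.86 in MYO5B(G519R) (edgeR adjusted p = 0.00478 and 0.00367). *Cidec*, a droplet fusion protein, rose by 1.00 and 0.50 log2. Of the 11 genes of this list tested, 2 (18.2%) rose in MYO5BΔIEC and 3 (27.3%), including the low-count *Cidea*, in MYO5B(G519R), and none fell, beside 13.5% and 13.1% higher among all genes. Leaving out control culture 1, the list had 3 genes (27.3%) higher and 1 (9.09%) lower in MYO5BΔIEC. In MYO5B(G519R) it had 5 (45.5%) higher and 2 (18.2%) lower. In these fits 3767 of 17783 and 4244 of 17647 genes were higher, and 20.8% and 22.1% lower. Among 15 regulators, 5 (33.3%) rose and 1 fell in MYO5BΔIEC, and 6 (40%) rose and 2 (13.3%) fell in MYO5B(G519R), where 13.1% of all genes rose and 13.7% fell. *Ppard*, a nuclear receptor activated by fatty acids, rose from 36.7 ± 10.5 CPM to 96.8 ± 17.0 and 84.4 ± 17.9 CPM, by 1.41 and 1.20 log2 (edgeR adjusted p = 0.00207 and 0.00483). *Srebf2* and *Srebf1*, which drive sterol and fatty acid synthesis, rose by 0.76 and 0.64 log2 in MYO5BΔIEC and by 0.85 and 0.72 log2 in MYO5B(G519R), and *Rxra* and *Ppargc1b* rose in both. *Hnf4a*, a factor of enterocyte identity, rose in MYO5B(G519R) by 0.39 log2. The bile acid receptor gene *Nr1h4* fell by 0.59 and 0.82 log2, and *Hnf4g* fell in MYO5B(G519R) by 1.06 log2. Compound-1 against vehicle gave no call in any of these lists.

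The pathway calls differed in how they held with 1 culture fewer. For MYO5BΔIEC and MYO5B(G519R) against control, the whole table also gave fewer calls in every such fit except those without control culture 1. Of the calls of genes chosen by the naming rule, 13 of 21 in MYO5BΔIEC and 18 of 27 in MYO5B(G519R) held in all 8 fits leaving out 1 culture, among them those of *Cd36*, *Dgat2*, *Agpat1*, *Cpt1a*, *Cpt1c*, *Pnpla2*, *Ppard*, *Srebf1*, *Srebf2* and *Rxra* in both models. Those of *Lpin1* held in 2 of 8 in each model (edgeR adjusted p up to 0.122 without MYO5BΔIEC culture 2 and 0.0932 without MYO5B(G519R) culture 3). In MYO5BΔIEC, *Acot13* held in 2 and *Hadhb* in 3, both weakest without control culture 3, and *Ppargc1b* in 3, weakest without control culture 4. In MYO5B(G519R), *Acot4* held in 1 (weakest without control culture 2), *Cidec* in 1 and *Cidea* in 3 (both weakest without MYO5B(G519R) culture 3), *Lpin2* in 3 (without control culture 3) and *Hnf4a* in 3 (without MYO5B(G519R) culture 2). The other calls of MYO5BΔIEC and MYO5B(G519R) that were lost in any of these fits held in 4 to 7 of 8. No named call changed direction in these fits. In MYO5BΔIEC the log2 fold changes ranged from 0.79 to 1.22 for *Lpin1* and from -1.04 to -0.66 for *Acot13*. In MYO5B(G519R) they ranged from 0.59 to 0.86 for *Lpin1* and from 0.40 to 0.64 for *Cidec*. Fewer calls held for Compound-1-treated cultures against control, 16 of 31 in all 8 fits, 7 in 4 to 7 and 8 in 3 or fewer.

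**Figure D4:**
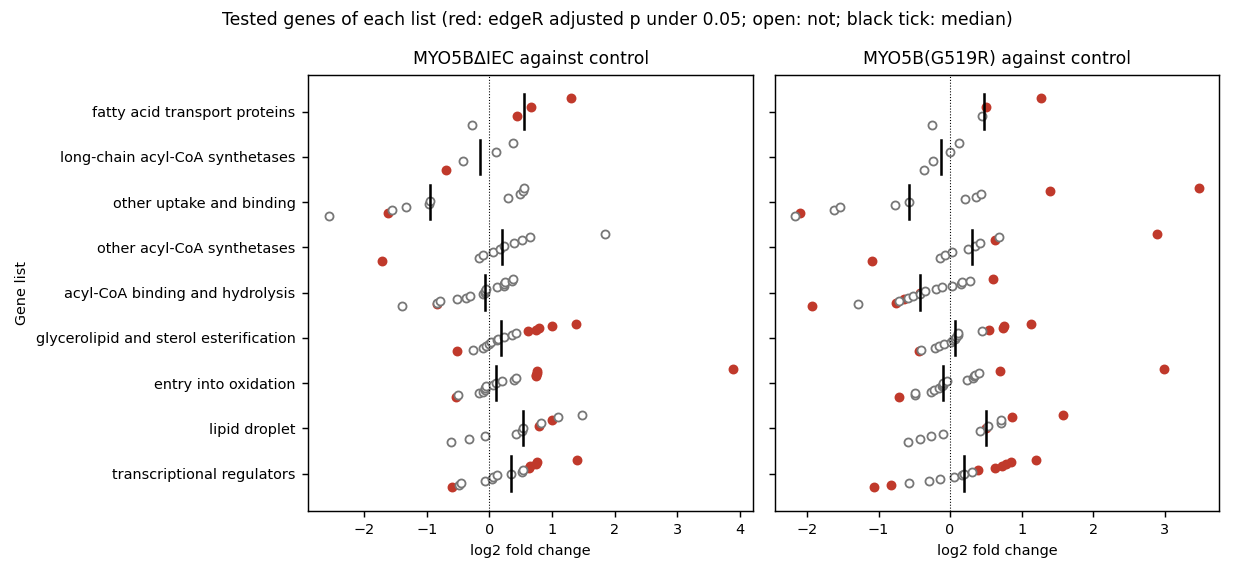
Log2 fold change (horizontal axis) of every tested gene of each list in MYO5BΔIEC (left) and MYO5B(G519R) (right) against control, red for adjusted p under 0.05 and open otherwise, with a black tick at the median. The median of the fatty acid transport proteins lies at 0.56 and 0.47, and that of the long-chain acyl-CoA synthetases at -0.15 and -0.12.

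Genes with the most similar profiles were sought by the Pearson correlation of log2(CPM + 0.5) over the 16 cultures among 13545 genes, as a description of cultures that share groups and libraries. *Slc27a3* was closest to *Nes* (r = 0.944) and *Rbck1* (0.939), *Slc27a4* to the brush border myosin gene *Myo1a* (0.953) and *Lima1* (0.946), *Slc27a2* to *Coq8a* (0.958) and *Lhpp*, and *Slc27a1* to *H2-Q4* (0.938) and *Sorl1*. The closest to *Acsl5* were *Sccpdh* (0.893) and *Atp8b5*, to *Acsl1* *Gramd2* (0.911) and *Lpcat3*, to *Acsl3* *Fbxo30* (0.852) and *Fdft1*, and to *Acsl4* *Wrn* (0.870) and *Smc5*. Among the 8 genes, *Acsl1* and *Acsl3* correlated at 0.609 over all cultures and at 0.919 after subtraction of group means, and *Slc27a2* and *Slc27a4* at -0.678 and -0.465.

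In the annotation of GRCm38, *Acsl3* (chromosome 1, 78657825 to 78707743, plus strand) overlaps *Utp14b* on the same strand, which had 452 to 1288 counts, and *Acsl5* (chromosome 19, 55251938 to 55297720, plus strand) overlaps *Zdhhc6* on the opposite strand, with 2432 to 4232 counts. As strand was not stated to be used in counting, reads of the overlapping parts cannot be told apart. *Slc27a3* spans chromosome 3, 90385239 to 90389938 (minus strand), *Slc27a4* chromosome 2, 29802634 to 29817522 (plus), *Slc27a1* chromosome 8, 71568882 to 71587302 (plus), and *Acsl4* chromosome X, 142317993 to 142390535 (minus), and none of these overlaps another annotated gene. *Slc27a2* and *Acsl1* overlap only genes that had at most 4 and 6 counts.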

How the data were processed

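Counts per gene in 16 libraries were deposited by the authors, who per the methods and the submitters' processing notes aligned reads to GRCm38/mm10 with STAR v2.5, counted them with HTSeq v0.6.1 and compared groups with DESeq2. FPKM values were deposited by the authors beside the counts, computed from counts, gene length and a library size. The library size that they imply was 0.8705 to 0.9065 of the total counts in control cultures 2 to 4. In the other cultures it was 1.01 to 1.085 of the total, and how it was set was not given in the sources used here. The annotation release, strand setting and treatment of multi-mapping reads were not given in the sources used here.

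The 8 genes and all gene lists were chosen with earlier results of these data known. Groups were compared pairwise, 4 cultures against 4, with edgeR 4.0.16 in R 4.3.3 (TMM, quasi-likelihood F test) on genes reaching 10 counts in 2 or more of the 8 libraries compared, with Benjamini-Hochberg adjustment over all genes tested and a threshold of 0.05. Standard errors and intervals come from that fit. CPM used TMM factors over all 16 libraries. The fit was also run on simulated counts, with few changed genes and no deviating culture. That setting differs from the comparisons with control. The 4 cultures of a group are stated to come from 4 mice, and whether groups share mice was not given in the sources used here. In the pathway lists, genes were named if they passed in either model with a mean of at least 1 CPM (at most the 2 highest and 2 lowest fold changes per list) or in a Compound-1 comparison. Alternatives were DESeq2 1.42.0 and its size factors, other filters, leaving out mitochondrially encoded genes (6.41% to 10.4% of counts in control and 3.79% to 6.63% in the other groups), 1 fit over all groups, blocking by replicate number, donor sex, gene length, and limma 3.58.1 on log2(FPKM + 1) or log2(FPKM + 0.1). Leaving out control replicate 1, DESeq2 and gene length were applied to the lists after seeing the data. At the library sizes here, 3 counts correspond to 0.0748 to 0.108 CPM. Some genes of the pathway lists are counted but not reported here by name. Promoter sequences were taken from RefSeq (GRCm38.p6).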

Additional observations from a re-analysis of the deposited data

Results flagged for a closer look

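In groups of 4 cultures, a culture was singled out when its gap to the nearest other culture, divided by the range of the group, exceeded Dixon's 95% critical value. Among the 32 combinations of gene and group, 2 did so, a number to be set against about 1 in 20 expected by chance. *Slc27a1* in MYO5B(G519R) culture 4 was at 33.1 CPM, below the 40.5 to 41.9 CPM of the other 3 cultures. *Acsl1* in control culture 1 was at 44.4 CPM, below the 65.1 to 68.6 CPM of the other controls, in the culture with 2866 CPM of summed enterocyte markers.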

How the results depend on the processing

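The call of *Slc27a3* held under every alternative in both models. The other counts of the 8 genes moved, and the cause was not tested. In MYO5BΔIEC against control, 3 genes higher and 1 lower became 1 higher and 0 lower with the replicate block, 2 higher without a filter and with limma on log2(FPKM + 1), 1 higher with the gene length trend removed, and 0 lower with limma at either pseudocount. In MYO5B(G519R) against control, 2 higher became 3 with DESeq2 (*Slc27a4*) and 1 with the replicate block, and with donor sex 1 gene (*Slc27a2*) was lower in place of 0. In Compound-1-treated cultures against control, 2 higher became 1 without a filter, with the block, with donor sex and with limma on log2(FPKM + 0.1), and 1 lower became 2 in 1 fit over all groups and with the gene length trend removed. Over the whole table, Compound-1 against vehicle gave 91 calls with DESeq2 and 12 without a filter in place of 0, and MYO5B(G519R) against MYO5BΔIEC gave 4 with DESeq2, 2 without a filter and 0 with limma in place of 1.

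Leaving out 1 culture at a time gave 2963 to 7474 calls for MYO5BΔIEC, 2880 to 8146 for MYO5B(G519R) and 2957 to 7459 for Compound-1-treated cultures against control, the highest each time without control culture 1, and 0 to 2 for MYO5B(G519R) against MYO5BΔIEC. Of the 8 genes, 1 to 3 were then higher and 0 to 2 lower in MYO5BΔIEC, 1 to 2 higher and 0 to 1 lower in MYO5B(G519R), and 0 to 2 higher and 0 to 1 lower with Compound-1 against control.

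The directions that turned were all of genes that had not passed the test in the comparison concerned. With the gene length trend removed, *Acsl1* was at -0.18 log2 in MYO5BΔIEC, -0.11 in MYO5B(G519R) and -0.17 with Compound-1 against control. *Acsl5* in MYO5B(G519R) was at 0.0275 with DESeq2 and with its size factors, 0.00452 without a filter, 0.0365 with donor sex, and 0.023 and 0.0231 with limma. In Compound-1 against vehicle, *Acsl1* was at 0.0204 in 1 fit over all groups and 0.0158 with donor sex. In MYO5B(G519R) against MYO5BΔIEC, donor sex gave -0.0236 for *Slc27a2* and 0.094 for *Slc27a3*. Leaving out 1 culture, the ranges that crossed 0 were -0.0152 to 0.198 for *Acsl1* in MYO5BΔIEC, -0.14 to 0.10 for *Acsl5* in MYO5B(G519R), -0.0164 to 0.264 for *Slc27a4*, -0.10 to 0.12 for *Acsl1* and -0.0599 to 0.211 for *Acsl4* in Compound-1 against vehicle, and, between the models, -0.0128 to 0.129 for *Slc27a1*, -0.0309 to 0.101 for *Slc27a2*, -0.25 to 0.17 for *Slc27a3* and -0.0683 to 0.102 for *Acsl1*.

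Nothing in the sources used here ties cultures with the same replicate number to each other. In MYO5BΔIEC against control the correlations of their deviations were -0.242, 0.172, -0.128 and 0.081, and no comparison had all 4 above 0.1. Between the models they were 0.177, 0.0795, 0.554 and 0.624, and cultures 1, 3 and 4 correlated best with their own number, a hint from the data and not from the design. By *Xist* and Y-linked counts, control cultures 1 and 2, MYO5BΔIEC cultures 2 and 3, MYO5B(G519R) culture 3 and Compound-1-treated culture 4 were female. All others were male. Cultures of the same number but different sex cannot come from 1 mouse. Between the models the sexes matched in cultures 1, 3 and 4 and differed in culture 2. The part of donor sex in the correlations was not tested. With the replicate block, 3647 genes in place of 4910 passed in MYO5BΔIEC, 3691 in place of 4778 in MYO5B(G519R), 4401 in place of 5275 in Compound-1-treated cultures against control, 0 in Compound-1 against vehicle and 1 between the models, where genes with an unadjusted p under 0.05 went from 772 to 2532.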
